A study of Mus musculus with 78 samples.

Results

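The data described here are RNA sequencing of the colon of mice labelled 18 months old, 4 libraries under circadian rhythm disruption (CRD) and 4 under a regular light cycle (CON), out of 78 libraries in the series. The mice were C57BL/6 with no other allele named, and both groups ate freely. CON mice had 12 h of light and 12 h of darkness. The CRD schedule had 3 stages: 4 weeks in which day and night were swapped every 3 days, 3 weeks of 48 h lit and 48 h dark, and 1 week lit throughout. The CRD libraries carry replicate numbers 1, 3, 4 and 5 and the CON libraries 1, 2, 3 and 4. A further CON library, replicate 5, was left out because it held Y-linked transcripts at levels far above the other 8, with Ddx3y at 11.3 FPKM against 0 to 0.03 and Eif2s3y at 43.59 FPKM against 0.5 to 1.05. Values are FPKM, fragments per kilobase of transcript scaled to library size. Levels can be set side by side between genes, but between libraries only as far as their composition is alike. Factors of another scaling, by median of ratios, ran from 0.94 to 1.08 over the 8 libraries used. Neither the stretch of colon sampled, nor the hour of collection, nor the sex of the animals is stated in the labels. The labels do not say whether replicate numbers stand for different animals; p-values therefore describe the spread among these libraries, which may be technical.

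Nearly every cell holds a molecular clock. ARNTL (BMAL1), paired with CLOCK or NPAS2, switches on the Per, Cry, Nr1d and Dbp genes, and the PER and CRY proteins then block ARNTL while the NR1D proteins repress its gene, so the arms peak at opposite times of day. Interferons are the antiviral cytokines: through their receptors they activate transcription factors that bind a DNA element called ISRE and induce a large set of effector genes. In the intestine the interferon response is carried by epithelial as well as immune cells.

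Among the 14112 genes that averaged 0.5 FPKM or more, 27 differed between CRD and CON at a Benjamini-Hochberg adjusted p under 0.05 (limma on log2(FPKM + 1)). Of these, 20 rose (0.142% of the genes tested) and 7 fell (0.0496%), and the values of the 4 CRD libraries lay outside those of the 4 CON libraries for all 27. Below that threshold the balance was the reverse: at an unadjusted p under 0.05, 670 genes were higher and 1610 lower, and the groups did not overlap with CRD higher for 305 genes (2.16%) and with CRD lower for 1108 (7.85%). Median-of-ratios scaling moved the median change of all genes from -0.036 to 0.019, and this balance was not counted under it. Of the 20 that rose, 15 belonged to lists of interferon-induced genes and 1, Cry1, was a clock gene. The 7 that fell were the clock genes Dbp and Nr1d1, the metabolic enzymes Gpd1, Acsf2 and Ugt1a6b, the stress-induced regulator Nupr1, and Mettl26. Changes ran from 0.80 to 2.45 among the risen genes and from -2.99 to -0.68 among the fallen, on the log2(FPKM + 1) scale. In bulk tissue, fewer cells of a type and less RNA per cell cannot be told apart.

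The count of calls turned on single libraries. The direction of the 27 genes could not change with a library left out, because their groups did not overlap. No gene was called without CON replicate 2 or without CRD replicate 4 (1928 and 1653 genes at an unadjusted p under 0.05), 6 were called without CON replicate 3, 7 without CRD replicate 3, 10 without CON replicate 4, 38 without CRD replicate 1 (14 of them among the 27), 43 without CRD replicate 5 and 97 (45 higher and 52 lower) without CON replicate 1. With CON replicate 5 put in, 23 genes were called, 20 of them among the 27. The 7 genes then lost were Slfn2, Slfn1, Gpd1, Ugt1a6b, Acsf2, Cry1 and Irgm2, with adjusted p from 0.0507 to 0.0982 and the same direction.

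**Figure D1:**
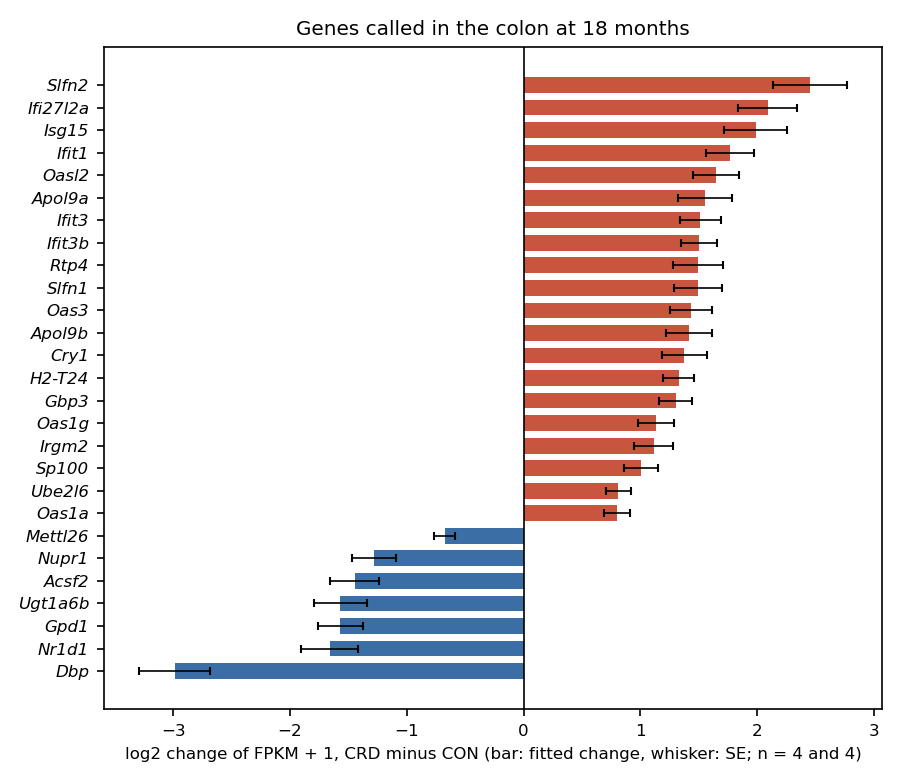
Fitted log2 change of FPKM + 1 (CRD minus CON, horizontal axis) for the 27 genes called in the colon at 18 months, with the standard error as whiskers and 4 libraries in each group. The 20 risen genes lie between 0.80 and 2.45 and the 7 fallen genes between -2.99 and -0.68, with Dbp the lowest.

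Before the values, a few promoters are shown, because most of the risen genes are known as interferon targets and the clock genes as targets of ARNTL. Windows of 300 bases around gene starts (250 before to 50 after) came from RefSeq (build GRCm38.p6), and 11185 of the tested genes had such a window. The ISRE core was searched as GAAA, any 2 bases and GAAA, and the E-box, the element that ARNTL binds, as CACGTG, both on either strand. The elements D-box (TTATG, any base, AA) and RORE (TAGGTCA) were searched in the same way. Of the 20 risen genes 17 had a window, and 11 of these held an ISRE core (64.7%), against 3.84% of all tested genes with a window. Parts of the windows of 4 such genes are printed 5′ to 3′ on the gene's own strand, with the ISRE core, in either orientation, in capitals. They are Isg15 at chr4:156200845-156200926 (minus strand), Ifit1 at chr19:34640755-34640843 (plus), Ifit3 at chr19:34583343-34583446 (plus) and Irgm2 at chr11:58214883-58214952 (plus).
Isg15: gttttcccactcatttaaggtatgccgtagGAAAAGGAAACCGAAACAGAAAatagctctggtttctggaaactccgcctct
Ifit1: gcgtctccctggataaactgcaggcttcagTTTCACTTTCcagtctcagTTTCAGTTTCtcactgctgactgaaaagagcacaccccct
Ifit3: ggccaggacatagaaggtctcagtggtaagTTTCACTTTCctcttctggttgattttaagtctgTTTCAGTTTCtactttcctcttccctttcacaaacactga
Irgm2: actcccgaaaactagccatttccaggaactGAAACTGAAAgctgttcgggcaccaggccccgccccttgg
The 3 overlapping cores of Isg15 lay 78 to 57 bases before the start, those of Ifit1 104 to 76 bases, those of Ifit3 156 to 113 bases, and the core of Irgm2 64 to 55 bases. None of the 13 clock genes with a window held the ISRE core.

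The E-box was present in 4 of those 13 clock genes (30.8%), Tef, Per1, Cry1 and Ciart, against 11.2% of all tested genes with a window. The parts of the Cry1 window at chr10:85185079-85185144 (minus strand) and of the Ciart window at chr3:95882237-95882374 (minus strand) are printed with the E-box in capitals, Cry1 because it rose and Ciart because it was lower in every CRD library. The windows of Dbp and Nr1d1 did not hold these letters. The D-box was present in 2 of the 17 risen genes with a window (11.8%), Oas1a and Sp100. It was also present in 2 of the 13 clock genes (15.4%), Per1 and Per3, against 2.72% of all tested genes with a window. The RORE was present in 0 of the 17 and in 1 of the 13 (7.69%), Arntl, against 2.36%. A match in a window is a description of sequence, not a bound site.
Cry1: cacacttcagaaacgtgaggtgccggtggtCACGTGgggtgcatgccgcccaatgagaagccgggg
Ciart: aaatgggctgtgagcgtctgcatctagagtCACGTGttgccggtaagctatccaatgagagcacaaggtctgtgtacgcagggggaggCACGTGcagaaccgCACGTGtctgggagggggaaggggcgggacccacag

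Among the clock genes, Dbp and Nr1d1 fell and Cry1 rose. Dbp, a transcription factor whose gene is a direct clock output (chromosome 7, 45705100 to 45710203), stood at 58.6, 54.15, 72.6 and 70.2 FPKM in CON replicates 1 to 4 and at 4.27, 10.9, 4.43 and 11.7 FPKM in CRD replicates 1, 3, 4 and 5. The lowest CON library was far above the highest CRD library, and CON replicate 5, left out, was at 25.1 FPKM, between the groups. Dbp fell by 2.99 ± 0.30 on the log2 scale (SE, adjusted p = 0.021), from a mean of 63.9 ± 8.92 FPKM (SD, n = 4) to 7.84 ± 4.04. Nr1d1, the receptor REV-ERB alpha that represses Arntl (chromosome 11, 98767932 to 98775377), was at 53.1, 49.6, 53.7 and 55.4 FPKM in CON and at 10.95, 11.4, 21.1 and 24.9 FPKM in CRD. It fell by 1.66 ± 0.24 (adjusted p = 0.0453), and its spread among the CON libraries was small (52.98 ± 2.44 FPKM, SD, n = 4). Ciart, a repressor of the clock, was at 6.73 to 11.9 FPKM in CON and 0.41 to 3.41 FPKM in CRD, and missed the threshold narrowly (-2.16 ± 0.33, adjusted p = 0.0504). Tef and Nr1d2, relatives of Dbp and Nr1d1, were also lower in every CRD library than in any CON library without passing the test (-1.54 ± 0.39, adjusted p = 0.134, and -1.26 ± 0.28, adjusted p = 0.11). Hlf, another Dbp relative, overlapped between groups (-0.97 ± 0.27).

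Cry1, whose protein blocks ARNTL (chromosome 10, 85131700 to 85185054), was at 9.68, 7.26, 6.15 and 4.59 FPKM in CON and at 22.6, 17.75, 19.5 and 16.6 FPKM in CRD. All CRD values were above all CON values, and Cry1 rose by 1.38 ± 0.19 (SE, adjusted p = 0.0392). Arntl itself was at 2.68 to 7.42 FPKM in CON and 13.5 to 30.55 FPKM in CRD, again with no overlap, but did not pass the test (1.81 ± 0.32, adjusted p = 0.0788), and it was at 15.6 FPKM in CON replicate 5. Npas2, the partner of ARNTL, did not pass either (1.18 ± 0.31, adjusted p = 0.137), nor did Clock (0.37 ± 0.15, adjusted p = 0.271). Among 5 clock activators 3 had groups that did not overlap with CRD higher, and among 10 repressors 4 had CRD lower, where 2.16% and 7.85% of all genes did. Since the hour of collection was not given, a shift of the clock's phase and a change of its mean level cannot be told apart.

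For the Per genes and Cry2, CRD replicate 3 had the highest value of the CRD libraries. Per2, a repressor that also responds to light and feeding signals, was at 33.4 FPKM in CRD replicate 3 and at 5.21, 2.58 and 4.88 FPKM in CRD replicates 1, 4 and 5, with CON at 4.64 to 10.2 FPKM. Per3 was at 10.5 FPKM in CRD replicate 3 against 1.89, 2.25 and 2.35 in the others, and Tef at 26.8 FPKM against 6.65, 5.6 and 11.9. The same library was low in Dbp and Nr1d1 and high in Cry1, as given above. Per2 (-0.07 ± 0.61) and Cry2 (-0.03 ± 0.25) had no direction that held: each turned positive when single libraries were left out or CON replicate 5 was put in, and Cry2 also with median-of-ratios scaling. Without CRD replicate 3, Tef, Nr1d2 and Ciart passed the threshold (adjusted p = 0.0402, 0.0162 and 0.0162) while the count of all calls was 7. Per1 was at 7.98 to 22.0 FPKM in CON and 5.88 to 9.08 FPKM in CRD (-0.62 ± 0.28, adjusted p = 0.318).

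**Figure D2:**
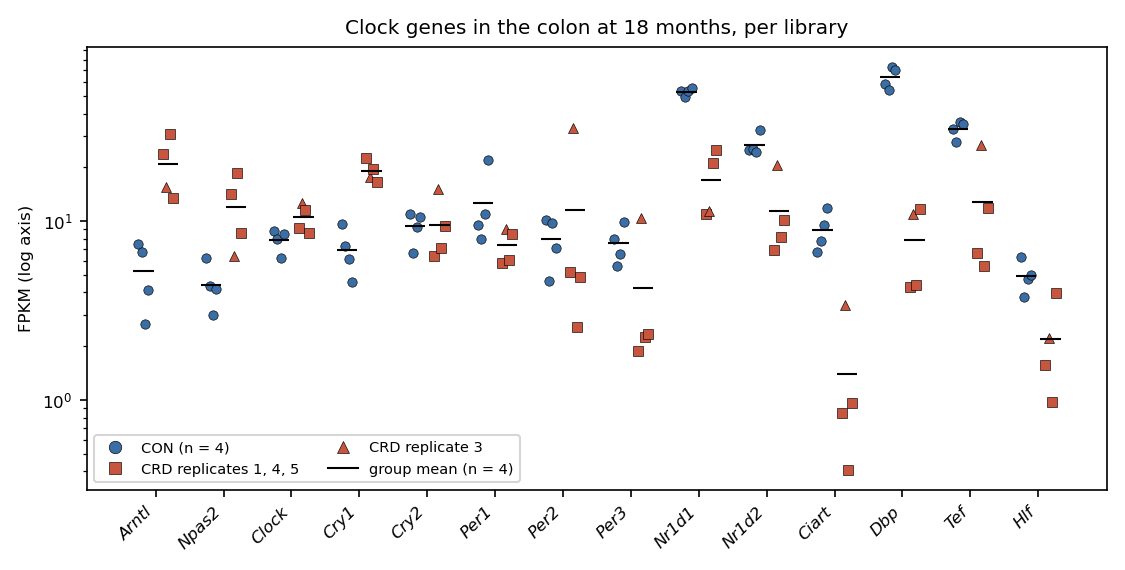
FPKM on a log axis of 14 clock genes in each library of the colon at 18 months, CON as circles, CRD as squares, with CRD replicate 3 as triangles and group means (n = 4) as lines. Dbp, Nr1d1, Nr1d2, Ciart and Tef are lower and Arntl, Npas2 and Cry1 higher in every CRD library than in any CON library, while Per2 and Per3 are high in CRD replicate 3 only among the CRD libraries.

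Interferon-induced genes made up 15 of the 20 genes that rose. Of 33 tested interferon effectors, 10 rose and 0 fell, 31 had a positive change, and in 24 every CRD library was above every CON library. Over all genes tested, 0.142% rose, 43.6% had a positive change and 2.16% did not overlap with CRD higher. The median change of the list was 1.06 on the log2 scale, against -0.04 over all genes tested. The other 2 effectors, Ifitm1 and Ifitm2, had negative changes (-0.34 ± 0.26 and -0.28 ± 0.20) and did not pass the test. The CON libraries differed in this programme too: CON replicate 3 was the lowest of the 4 for 28 of the 33 effectors, and among the CRD libraries replicate 5 was the lowest for 25.

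Isg15, a ubiquitin-like protein that is attached to other proteins (chromosome 4, 156199424 to 156200818), was at 56.1, 37.9, 23.1 and 36.85 FPKM in CON and at 193.8, 160.2, 154.7 and 102.3 FPKM in CRD. It rose by 1.99 ± 0.27 (SE, adjusted p = 0.0379), with its lowest CRD value above its highest CON value. Of the 5 genes for attaching and removing ISG15, Isg15 and the conjugating enzyme Ube2l6 rose. Ube2l6 went from 27.4 ± 3.91 to 48.6 ± 1.81 FPKM (SD, n = 4 each; 0.81 ± 0.11, adjusted p = 0.0372). The deconjugating enzyme Usp18, which also limits interferon signalling, did not overlap between groups (6.43 to 9.92 against 18.2 to 35.7 FPKM) but missed the threshold (adjusted p = 0.0788). Uba7 (0.49 ± 0.15) and Herc6 (1.05 ± 0.29), the activating enzyme and a ligase, overlapped between groups.

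Members of the IFIT family, which bind viral RNA, and of the OAS family, which sense double-stranded RNA, were among the genes that rose. Ifit1 was at 33.0, 26.8, 17.4 and 28.6 FPKM in CON and 108.0, 106.3, 79.7 and 72.5 FPKM in CRD (1.77 ± 0.21, adjusted p = 0.0269). Ifit3 went from 14.3 ± 3.28 to 42.2 ± 6.37 FPKM and its near-identical neighbour Ifit3b from 3.40 ± 0.59 to 11.55 ± 2.14 FPKM, and how reads were divided between them is not known. Ifit1bl1, another family member, was higher in every CRD library (38.3 to 108.2 against 129.4 to 521.35 FPKM) but did not pass the test (2.05 ± 0.44, adjusted p = 0.11). Ifit2 was at 3.38 to 9.62 FPKM in CON and 6.80 to 11.5 FPKM in CRD, and did not pass the test (0.42 ± 0.28, adjusted p = 0.518). Oasl2 rose from 87.2 ± 24.1 to 268.5 ± 24.4 FPKM (1.65 ± 0.19, adjusted p = 0.0269). Oas3, Oas1g and Oas1a, the last at 163.2 ± 11.8 FPKM under CRD, also rose, whereas Oas2, with CRD values from 29.8 to 77.8 FPKM, did not pass the test (2.14 ± 0.38, adjusted p = 0.0788). Oas3, Oas1g, Oas1a, H2-T24, Apol9b and Sp100 lie outside the rule for named genes and were named after their values were seen.

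Ifi27l2a, an interferon-induced mitochondrial protein (chromosome 12, 103433873 to 103443680), was the most abundant of the risen genes. It was at 182.5, 99.2, 90.4 and 171.7 FPKM in CON and at 598.7, 447.5, 698.5 and 506.65 FPKM in CRD, a rise of 2.09 ± 0.25 (SE, adjusted p = 0.0287). Rtp4, which dampens interferon signalling, rose from 25.5 ± 5.77 to 73.9 ± 16.9 FPKM. The apolipoprotein L genes Apol9a and Apol9b rose too, Apol9a from 25.6 ± 9.58 to 74.0 ± 9.27 FPKM, and these 2 are also near-identical copies. H2-T24, a non-classical MHC class I gene (chromosome 17, 36003471 to 36020800), was at 2.53 to 3.44 FPKM in CON and 7.48 to 10.7 FPKM in CRD, and had the smallest p of all genes (1.33 ± 0.13, adjusted p = 0.021).

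Schlafen genes, which restrict cell growth and viral replication, lie in a cluster on chromosome 11. Slfn2 was at 13.0, 6.53, 10.6 and 12.2 FPKM in CON and at 44.9, 82.0, 95.8 and 38.5 FPKM in CRD. Its rise of 2.45 ± 0.31 (SE, adjusted p = 0.033) was the largest among the called genes. Slfn1, a weakly expressed gene, rose from 0.55 ± 0.21 to 3.47 ± 1.13 FPKM. Slfn4 had a larger change than either (3.46 ± 0.55) and missed the threshold (adjusted p = 0.0629), with CON at 10.8 to 69.1 FPKM and CRD at 135.9 to 508.05 FPKM. Of the 7 schlafen genes tested, 2 rose and 6 did not overlap between groups with CRD higher, against 0.142% and 2.16% of all genes. Slfn9 was the exception (0.27 ± 0.24).

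Guanylate binding proteins and immunity-related GTPases attack vacuoles that hold intracellular microbes, and respond most to interferon gamma. Of 14 tested, 2 rose and 13 had a positive change, with a list median of 0.74, where 0.142% of all genes rose and 43.6% were positive. Gbp3 was at 6.16, 6.34, 5.38 and 9.18 FPKM in CON and at 17.6, 17.5, 18.8 and 17.5 FPKM in CRD (1.30 ± 0.14, adjusted p = 0.0269). Irgm2 was at 8.89 to 15.1 FPKM in CON and 22.5 to 32.4 FPKM in CRD (1.11 ± 0.17, adjusted p = 0.0457). Gbp8 had the negative change (-0.26 ± 0.36).

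Upstream of these effectors, of 13 signalling genes none passed the test. Stat2 (12.9 ± 2.55 to 27.4 ± 5.28 FPKM, adjusted p = 0.0788) and Irf9 (23.25 ± 3.78 to 41.4 ± 4.98 FPKM, adjusted p = 0.0746), partners in the factor that binds the ISRE, and Irf7 did not overlap between groups with CRD higher. Irf8, a factor of myeloid cells, was lower in every CRD library (-0.77 ± 0.22, adjusted p = 0.157). Of 10 sensors of foreign nucleic acid none passed either, though Ddx58 (RIG-I), Dhx58 and Zbp1 did not overlap with CRD higher. Over all genes tested, 2.16% did not overlap with CRD higher and 7.85% with CRD lower. Of 10 ligands and receptors 6 were expressed enough to be tested, with a median change of 0.03. The receptor of interferon lambda, Ifnlr1, was at 2.63 to 4.78 FPKM in CON and 4.01 to 7.03 FPKM in CRD (0.51 ± 0.18, adjusted p = 0.226), and the type I receptor Ifnar1 at 9.22 to 11.95 and 9.66 to 12.3 FPKM. The antigen presentation genes of MHC class I did not pass the test in any of 11 cases (median 0.11), with Nlrc5 (0.69 ± 0.21) and the peptide transporter Tap1 (0.54 ± 0.17) at the smallest p.

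**Figure D3:**
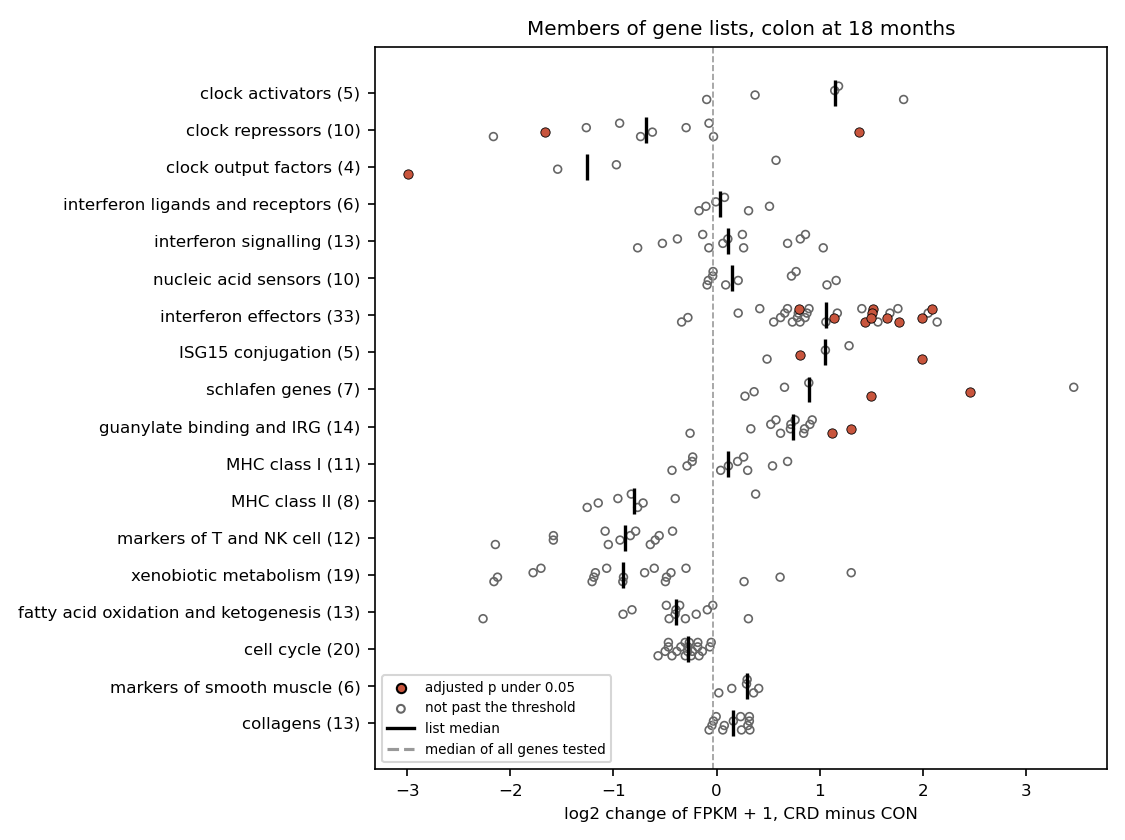
Log2 change of FPKM + 1 (CRD minus CON) for each tested member of 18 gene lists in the colon at 18 months, with the number tested in brackets, called genes filled, list medians as bars and the median of all genes as a dashed line. Interferon effectors centre on 1.06, while MHC class II, T and NK cell markers and xenobiotic metabolism centre on -0.80, -0.89 and -0.90 with no called member.

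The fallen genes outside the clock included 3 enzymes, all in no list. Gpd1, which links glycolysis to glycerolipid synthesis, was at 19.3, 23.5, 28.2 and 29.8 FPKM in CON and at 11.3, 6.52, 6.80 and 6.93 FPKM in CRD. It fell by 1.57 ± 0.19 (SE, adjusted p = 0.0287), with CRD replicate 1 the highest of its group. CON replicate 5, at 9.81 FPKM, lay within the CRD range, and with it the change was -1.32 (adjusted p = 0.0982). Acsf2, a mitochondrial acyl-CoA synthetase, fell by 1.45 ± 0.21 (adjusted p = 0.0435) from 109.5 ± 24.9 to 39.85 ± 11.3 FPKM. Ugt1a6b, which conjugates phenolic compounds to glucuronic acid, was at 65.6, 69.5, 82.2 and 81.0 FPKM in CON and at 39.6, 17.2, 20.2 and 25.4 FPKM in CRD (-1.57 ± 0.23, adjusted p = 0.0435). It shares exons with other Ugt1a genes, so its reads could have been divided among them. Nupr1, a nuclear protein induced by cell stress, was at 374.25, 529.1, 520.3 and 628.6 FPKM in CON and 253.95, 158.0, 211.2 and 215.5 FPKM in CRD, a fall of 1.28 ± 0.19 (adjusted p = 0.0456). It was 1 of 14 tested genes of the integrated stress response, and the only one of that list that passed. Mettl26 had the smallest of the falls (0.68 ± 0.09 lower, 66.5 ± 1.66 to 41.4 ± 3.69 FPKM).

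Wider metabolic lists had mostly negative changes and no called member. Of 19 enzymes and transporters that handle foreign compounds, 16 had a negative change and 10 were lower in every CRD library than in any CON library, where 7.85% of all genes were. The carboxylesterase Ces1f was at 61.3, 86.5, 70.0 and 124.1 FPKM in CON and at 44.1, 23.85, 14.6 and 19.0 FPKM in CRD (-1.78 ± 0.33, adjusted p = 0.0828), and the glutathione transferase Gsta4 at 38.3 to 69.9 and 14.4 to 31.8 FPKM (-1.21 ± 0.25, adjusted p = 0.105). The positive ones were Cyp3a13, Cyp2d34 and Abcg2. Of 13 genes of fatty acid oxidation and ketone body synthesis, 12 had a negative change and 7 did not overlap. Pparg, a lipid-sensing receptor of colonocytes, was at 61.2 to 85.55 and 27.8 to 51.3 FPKM (-0.91 ± 0.19, adjusted p = 0.105). All 20 cell cycle genes tested had negative changes, none past the threshold (median -0.28), where 43.6% of all genes had a positive change. Only 1 of the 20 was lower in every CRD library than in any CON library. Their summed level overlapped, 272.8 to 365.9 FPKM in CON and 197.3 to 342.7 FPKM in CRD.

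Genes of the colon's own epithelium varied in the same libraries, and their part in these results was not tested. Car1, a carbonic anhydrase of surface colonocytes, was at 4362 to 11137 FPKM in CON and 1328 to 3540 FPKM in CRD (-2.01 ± 0.38, adjusted p = 0.0863). Car4 went the other way without passing the test (344.7 to 560.7 against 595.9 to 1623 FPKM). The water channel Aqp8 was at 422.4, 140.65, 19.5 and 11.01 FPKM in CON and at 379.6 to 699.0 FPKM in CRD. Muc2, the main secreted mucin, was at 2128 to 2678 FPKM in CON and at 2459, 924.3, 1025 and 1177 FPKM in CRD (-0.93 ± 0.29, adjusted p = 0.18). Muc2 had the lowest change of 8 goblet cell markers, of which 4 were positive (median 0.07). Car1 was the only negative one of 9 colonocyte markers (8 positive, median 0.33). Over all genes tested, 43.6% were positive. Epcam, which marks all epithelium, was at 597.1 to 698.7 and 475.7 to 846.1 FPKM. Thus the labelled tissue's markers were present in all 8 libraries, while those that mark kinds of colonocyte differed several-fold among the libraries of one schedule.

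Markers of other cell types varied among libraries within a schedule. In some lists all tested members changed in 1 direction, none with a called member, where 43.6% of all genes tested had a positive change. All 4 adipocyte and 3 tested mast cell markers had negative changes and all 3 mesothelium markers positive ones. The groups overlapped for each of these genes and for the summed levels. CRD replicate 5 was the highest of the CRD libraries for all 6 smooth muscle genes, whose summed level was 15419 FPKM there, against 2553 to 4586 FPKM in the other CRD libraries and 2616 to 5105 FPKM in CON. It was also the highest CRD library for all 7 enteric neuron genes and 12 of 13 collagens. The interferon effectors were lowest in that library among the CRD group, and without it 43 genes were called. CON replicate 4 was the highest CON library for all 12 tested markers of T and NK cells and for 19 of 33 interferon effectors, and without it 10 genes were called. All 12 had a negative change (median -0.89) with none past the threshold, and their summed level overlapped, 30.2 to 190.6 FPKM in CON and 15.8 to 41.7 FPKM in CRD. Cd7, found on T and NK cells, was at 1.77 to 11.95 FPKM in CON and 0.41 to 1.35 FPKM in CRD (-1.58 ± 0.43, adjusted p = 0.138).

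Genes of MHC class II, which present antigen to CD4 T cells, had a median change of -0.80 over 8 genes with none past the threshold. Cd74, the invariant chain, was at 583.6, 407.7, 738.2 and 894.4 FPKM in CON and at 210.75, 226.8, 396.4 and 253.4 FPKM in CRD (-1.25 ± 0.27, adjusted p = 0.11). The CRD library with the highest Cd74 value lay just below the lowest CON library. H2-DMa, which loads peptide onto class II, went from 19.0 ± 6.52 to 7.87 ± 2.15 FPKM (-1.15 ± 0.25, adjusted p = 0.11). These genes are induced by interferon gamma and expressed by dendritic cells, B cells and macrophages. Macrophage and monocyte markers had a median change of -0.02, with 5 of 10 negative. B and plasma cell markers had a median of -0.56, with 6 of 8 negative. Only 2 of 5 dendritic cell markers were expressed enough to be tested. No marker of these cell types passed the threshold, and their part in the class II values was not tested.

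Ly6g, used as a surface marker of neutrophils, was at 3.22, 1.09, 0.75 and 0.44 FPKM in CON and at 8.39, 179.9, 123.2 and 40.9 FPKM in CRD (4.65 ± 0.83, adjusted p = 0.0788). The defining neutrophil transcripts were at or near 0 in both groups: S100a8 at 0 to 0.33 FPKM and S100a9 at 0 to 0.34 FPKM over the 8 libraries. The receptors Csf3r (0.98 to 1.61 FPKM) and Cxcr2 (1.46 to 2.90 FPKM) were low and overlapped between groups. The summed level of the 10 neutrophil markers, Ly6g included, was 5.22 to 7.67 FPKM in CON and 12.1 to 183.85 FPKM in CRD. Ly6g made up most of that sum in each CRD library: 8.39 of 12.14, 179.9 of 183.85, 123.2 of 128.36 and 40.9 of 46.61 FPKM. Its part in the other results was not tested. Of these markers 4 were expressed enough to be tested, and none passed. The change was positive for 3 and negative for 1, which was lower in every CRD library (-0.65).

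**Figure D4:**
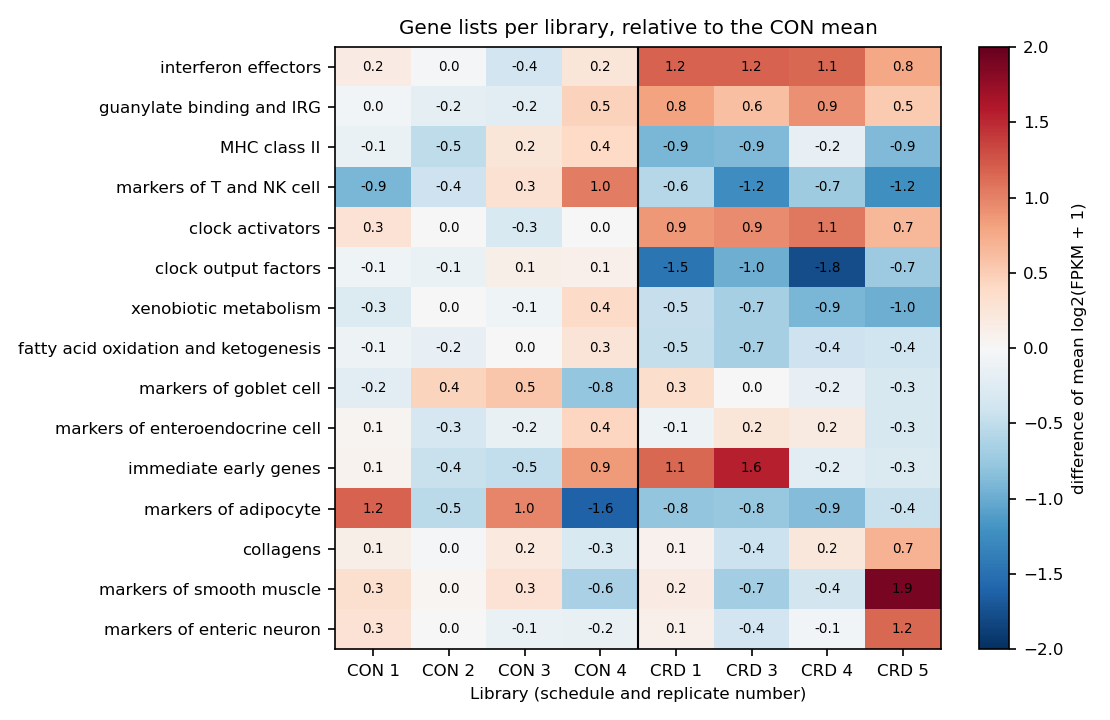
Mean log2(FPKM + 1) of 15 gene lists (rows) in each of the 8 libraries (columns), minus the mean of the 4 CON libraries, printed in each cell and coloured from -2 to 2. Interferon effectors are 0.8 to 1.2 above the CON mean in the 4 CRD libraries, smooth muscle genes are 1.9 above it in CRD replicate 5, and T and NK cell markers run from -0.9 to 1.0 within CON.

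A comparison with the colon of mice labelled 8 weeks (4 CON and 5 CRD libraries) asks whether the effect of CRD depends on age. The 8-week libraries all held Y-linked transcripts (Ddx3y at 10.8 to 15.3 FPKM) and the 18-month ones used here did not, so age and the presence of Y-linked transcripts cannot be told apart. The label of 8 weeks also equals the length of the whole CRD schedule, so it cannot be read as the age at collection. The CRD effect at 18 months was more positive than at 8 weeks for 45 of 14079 genes (0.320%) and more negative for 12 (0.0852%). The first group held 15 of 33 interferon effectors and 4 of 7 schlafen genes. The second held 5 of 8 MHC class II genes and 3 of 12 tested T and NK cell markers.

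Ifi27l2a had the largest difference on the positive side (4.13 ± 0.38, SE, adjusted p = 9.69e-05). Its level was 136.0 ± 47.9 FPKM in 18-month CON (SD, n = 4) and 562.8 ± 109.8 in 18-month CRD (n = 4), but 738.6 ± 259.1 in 8-week CON (n = 4) and 170.9 ± 27.35 in 8-week CRD (n = 5). Hence the order of CON and CRD was opposite at the 2 labelled ages. Isg15 did not turn round as clearly: 38.5 ± 13.55 and 152.7 ± 37.8 FPKM at 18 months, and 232.2 ± 86.8 and 153.4 ± 39.0 FPKM at 8 weeks (difference 2.54 ± 0.40, adjusted p = 0.00705). For all 20 risen genes the mean of the 8-week CON libraries was above that of the 18-month CON libraries. Slfn4, Oas2, Ifit3 and Slfn2 followed Ifi27l2a in the size of the difference (4.10 ± 0.83, 2.89 ± 0.47, 2.73 ± 0.43 and 2.63 ± 0.47).

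On the negative side Ccl5, a chemokine of T and NK cells, had the largest difference (-3.65 ± 0.70, adjusted p = 0.0259). It was at 32.5 ± 22.9 and 9.29 ± 5.23 FPKM in CON and CRD at 18 months and at 32.6 ± 20.4 and 129.8 ± 50.0 FPKM at 8 weeks. Cd74 was at 656.0 ± 208.5 and 271.8 ± 84.9 FPKM at 18 months and at 533.2 ± 244.5 and 1269.7 ± 208.9 FPKM at 8 weeks (-2.61 ± 0.42, adjusted p = 0.00856). Cd7 (-3.16 ± 0.62), H2-Aa (-2.35 ± 0.38) and H2-DMa (-2.19 ± 0.38) had differences of the same sign. With 1 of the 17 libraries left out, the call was lost in 12 cases for Slfn4 (adjusted p up to 0.109), in 10 for Ccl5 (up to 0.076) and in 10 for Cd7 (up to 0.0915), and in none for the other 7 named genes. None of the 14 clock genes passed this test. Dbp was at 31.3 ± 13.0 and 24.6 ± 21.4 FPKM at 8 weeks, where its CRD libraries were widely spread (difference -2.37 ± 0.67, adjusted p = 0.216).

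**Figure D5:**
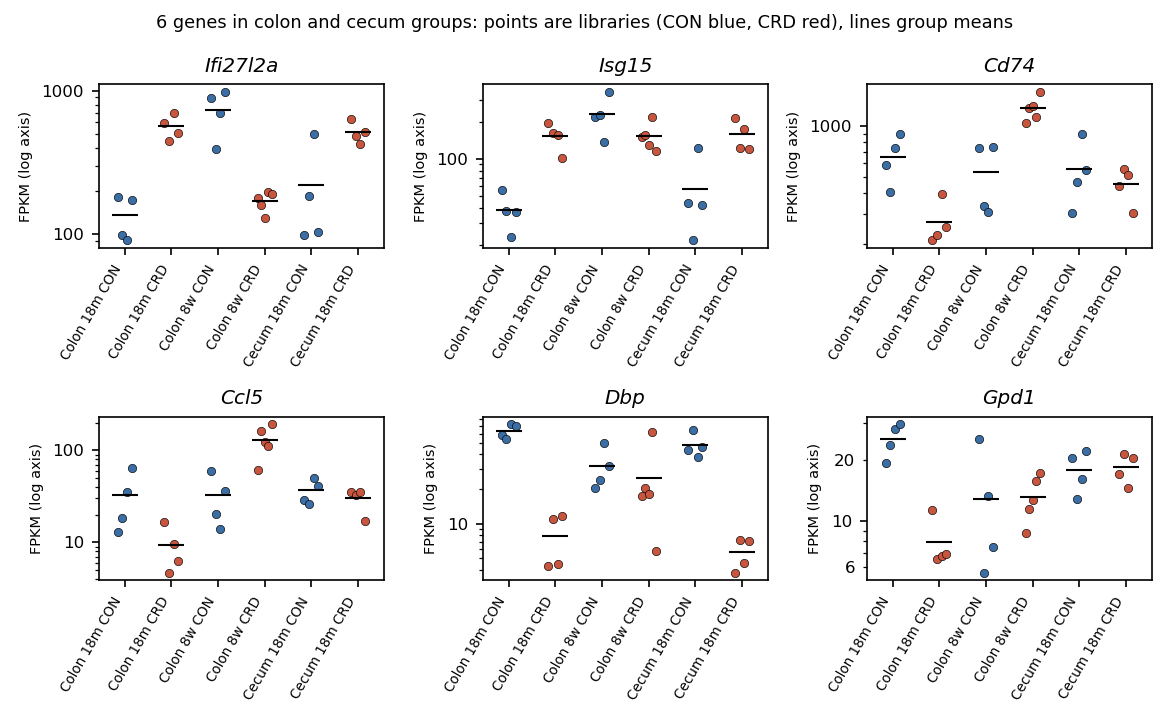
FPKM on log axes of 6 genes in the colon groups at 18 months and 8 weeks and in the cecum at 18 months, each point a library, CON in blue, CRD in red, with group means as lines. Ifi27l2a is higher in CRD at 18 months and lower in CRD at 8 weeks in the colon, Dbp is low in CRD of colon and cecum at 18 months, and Gpd1 is low in CRD in the 18-month colon but not in the cecum.

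The cecum of the 18-month mice (4 CON and 4 CRD libraries) was compared to ask whether the effect is shared along the large intestine. No gene of 14032 had a CRD effect that differed between colon and cecum in limma's test (0 called, 0%, 2448 at an unadjusted p under 0.05, smallest adjusted p = 0.0623). A fit with the replicate number as a block takes libraries numbered alike in colon and cecum as pairs, which the labels do not state. It called 1 gene, the pentraxin Mptx1 (6.07 ± 0.56, adjusted p = 0.0112). Without the block its adjusted p was 0.18: Mptx1 was at 126.5, 4393, 1278 and 12.99 FPKM in colon CON, 2338 to 6131 FPKM in colon CRD, 1.57 to 267.4 FPKM in cecum CON and 0.86 to 2.64 FPKM in cecum CRD. Without CON replicate 1 of the colon 88 genes were called, and without CRD replicate 1 of the colon 177, so this count too turned on single libraries. Nupr1, Gpd1, Ugt1a6b, Pgd and Erg28 had the smallest p.

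None of the 14 clock genes had a CRD effect that differed between colon and cecum past the threshold. The difference was positive for all 5 clock activators (0.24 to 0.63) and for 8 of 10 repressors (up to 1.04). Over all genes tested, 57.9% of the differences were positive, with a median of 0.07. Dbp was at 48.1 ± 11.4 FPKM in cecum CON (SD, n = 4) and 5.64 ± 1.73 in cecum CRD (difference of the effects -0.09 ± 0.40, SE, adjusted p = 0.927). Cry1 was at 7.19 ± 0.36 and 15.9 ± 1.39 FPKM (0.33 ± 0.22, adjusted p = 0.422). Isg15 was at 57.4 ± 44.0 and 157.8 ± 44.75 FPKM (0.31 ± 0.56, adjusted p = 0.787), with a wide spread in cecum CON.

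The metabolic genes that fell in the colon had similar means in both schedules in the cecum. Gpd1 was at 17.8 ± 4.12 and 18.3 ± 3.06 FPKM there (difference of the effects -1.62 ± 0.27, adjusted p = 0.106), and Ugt1a6b at 110.9 ± 22.8 and 117.1 ± 18.9 FPKM (-1.66 ± 0.30, adjusted p = 0.106). Acsf2 was at 158.3 ± 37.7 and 158.5 ± 46.3 FPKM (-1.44 ± 0.32, adjusted p = 0.117). Nupr1, at 39.9 ± 2.45 and 50.55 ± 9.16 FPKM, was far less abundant in the cecum than in the colon (-1.60 ± 0.23, adjusted p = 0.0623). None of these differences passed the threshold with all libraries, and Nupr1, Gpd1 and Ugt1a6b passed it without CON replicate 1 or CRD replicate 1 of the colon.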

How the data were processed

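The authors deposited 1 table of FPKM values with 2 decimals for 20673 genes and 78 libraries. Per the labels' protocols, RNA was extracted with Trizol, selected with oligo(dT) and primed with random hexamers. HISAT2, Bowtie2, RSEM and DESeq2 on build GRCm38 are listed, per the submitters' processing notes; versions, settings and strand use are not given in the sources used here. Absolute depth is unknown. Steps between low values of 104 to 124 genes per library gave relative depths of 0.92 to 1, too coarse to show equal depth. FPKM summed to 507210 to 556428 per library, with 17279 to 17325 genes above 0. Mitochondrial transcripts were not analysed here.

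Groups came from the labels. Values were taken as log2(FPKM + 1), a scale that understates changes of low genes, and genes averaging 0.5 FPKM or more over the libraries compared were tested with limma 3.58.1 (R 4.3.3) with an intensity trend. The fits were the 8 libraries alone, 17 colon libraries (schedule by age) and 16 colon and cecum libraries (schedule by tissue). A call is a Benjamini-Hochberg adjusted p under 0.05. Errors are SE of the fit or SD over libraries. On simulated data with 200 changed genes, 73.2% of changes of size 1 and 94.2% of size 2 (log2) were recovered in the 8-library design, with 10 false calls among 178. In the data themselves Ciart (-2.16), Slfn4 (3.46) and Ly6g (4.65) missed the threshold. A gene without a call is therefore not shown to be unchanged. Libraries numbered alike in colon and cecum deviated together in all 8 pairs (r 0.125 to 0.6). Those numbered unlike within a schedule had r from -0.484 to 0.236, so some exceeded alike pairs. The labels do not state pairing, so the main test used none and the block was an alternative. Alternatives were another pseudocount, filter, scaling and variance prior, a replicate block, a joint fit, CON replicate 5 put in and each library left out.

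Named genes were the 10 largest rises and falls among called genes with at least 1 FPKM in the higher group, up to 4 called genes of a list, 14 clock genes, and the 2 smallest p of lists with no call. Retnlb, Ang4, Itln1, Defa17 and Atp12a were chosen after values were seen. So were other list members described beyond that rule, such as Usp18, Ifit2, Irf8, Epcam and Egr1. The leave-out of CRD replicates 3 and 5 together was also chosen then. The libraries, lists and rule were chosen with earlier results of these data known. Coordinates are RefSeq gene spans (GRCm38.p6), counted from 1, matched by gene ID for 20517 genes.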

Additional observations from a re-analysis of the deposited data

Results flagged for a closer look

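Of 64 groups of 4 values examined for 32 named genes, 5 held a library far from the others, where chance flags about 1 in 20. They are Gpd1 in CRD replicate 1 (11.34 FPKM, highest), Per3 in CRD replicate 3 (10.46, highest), Gbp3 in CRD replicate 4 (18.83, highest), and Ube2l6 (33.24) and Nr1d2 (32.24) in CON replicate 4, both highest. The range of Gbp3 in its group is narrow, 17.46 to 18.83 FPKM.

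The effect of CRD in the colon differed between 18 months and 8 weeks for 57 genes, by the interaction test. The 5 largest on each side were Ifi27l2a (4.13), Slfn4 (4.10), Oas2 (2.89), Ifit3 (2.73) and Slfn2 (2.63), and Ccl5 (-3.65), Cd7 (-3.16), Cd74 (-2.61), H2-Aa (-2.35) and H2-DMa (-2.19), all as differences of log2 changes. The labelled ages differ in Y-linked transcripts as well, and the part of that in the difference cannot be told apart.

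CON replicate 5 of the 18-month colon, left out of the comparisons, held Ddx3y at 11.3 FPKM and Eif2s3y at 43.59 FPKM, within the range of the 8-week libraries (10.82 to 15.26 and 22.8 to 44.06 FPKM).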

How the results depend on the processing

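Because the groups of the 27 genes called in the colon did not overlap, most of the 17 alternatives could not change their direction. All 27 kept it, but the count of calls moved. It was 28 with a pseudocount of 0.1, 28 with a mean of at least 1 FPKM, 34 (28 higher) with median-of-ratios scaling, 23 with CON replicate 5 put in, 12 with no intensity trend, 48 (35 higher, 21 of the 27 among them) in the joint fit of 17 libraries, and 0 with no filter (2629 genes at an unadjusted p under 0.05, 18765 tested). Leaving out 1 library gave 0 to 97 calls, and leaving out CRD replicates 3 and 5 gave 7. With the replicate number as a block 0 genes were called (2181 at an unadjusted p under 0.05). The 3 equally numbered pairs of colon libraries correlated at -0.186, -0.303 and 0.166, too few values to decide whether the numbers pair them. The labels do not state pairing. The age difference gave 57 calls, 39 to 65 with 1 library left out and 9 with the block; median-of-ratios scaling shifted the median of all genes by 0.118 (66 calls, 55 of the 57 among them). The tissue difference gave 0 calls, 0 to 177 with 1 library left out and 1 with the block. Per2 changed sign with CON replicate 5 put in (0.0042; -0.76 to 0.32 with 1 library left out), as did Cry2 (0.0902; 0.0334 with the other scaling; -0.26 to 0.12). The list median of sterol synthesis turned to 0.0407 with the block and 0.0366 without CRD replicates 3 and 5, and that of antimicrobial proteins to -0.00257 without both (-0.10 to 0.47 with 1 library left out). The causes were not tested. Depth cannot be given from FPKM, and lists of weakly expressed genes (neutrophil and dendritic cell markers) were tested only in part.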

Other observations

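Of 18 antimicrobial genes tested none passed the threshold, 11 had a positive change (list median 0.09), and Saa1, Saa2 and Lypd8 were higher in every CRD library. Over all genes tested, 43.6% had a positive change and 2.16% did not overlap with CRD higher. The acute-phase proteins Saa1 (140.9 to 468.4 FPKM in CON, 536.7 to 2064 in CRD; adjusted p = 0.121) and Saa2 (0.15 to 1.76 and 2.11 to 5.21 FPKM; adjusted p = 0.102) had the smallest p. Another 3 members, chosen after their values were seen, varied by orders of magnitude within both schedules. Retnlb, a goblet cell lectin-like protein that acts on bacteria, was at 239.95, 4609, 4779 and 10.02 FPKM in CON replicates 1 to 4 and at 2147, 1.29, 3.12 and 2049 FPKM in CRD replicates 1, 3, 4 and 5. Ang4, a bactericidal ribonuclease, was high and low in the same libraries, at 108.9, 5296, 5089 and 8.04 FPKM in CON and 2812, 82.1, 62.2 and 2008 FPKM in CRD. Itln1, a lectin of goblet and Paneth cells, was at 0.56, 123.9, 258.0 and 1.52 FPKM in CON and at 33.5, 10.8, 1.52 and 35.9 FPKM in CRD. None of these 3 passed limma's test between the schedules (adjusted p = 0.722, 0.996 and 0.938). Both schedules thus held a pair of libraries high and a pair low in Retnlb and Ang4.

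Defa17, an alpha-defensin, was listed at 0 in all 4 CON libraries and at 2.88, 50.5, 7.91 and 28.9 FPKM in CRD (adjusted p = 0.0788), and at 0 in CON replicate 5. Atp12a, the proton and potassium pump of the distal colon, was at 0.58 to 2.97 FPKM in CON and at 1.35, 150.7, 96.7 and 7.38 FPKM in CRD (adjusted p = 0.22). Among the CRD libraries, replicates 3 and 4 were the highest in Atp12a and Ly6g and the lowest in Retnlb and Ang4. Immediate early genes, which rise within minutes of stimulation or handling, separated the libraries in another way: Egr1 was at 113.9 FPKM in CON replicate 4 and at 75.8 and 173.1 FPKM in CRD replicates 1 and 3, and at 4.45 to 11.8 FPKM in the remaining 5.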
